A study of Mus musculus with 6 samples.

Results

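The 44 collagen chain genes of a mouse skin RNA sequencing table are described here. They were taken by name alone, as every gene of the table whose symbol is Col, a type number, the letter a and a chain number, out of 47729 genes. Of the 44 genes, 11 code for fibrillar collagens, 10 for collagens of the basement membrane zone and 23 for other collagens. The study sequenced mRNA from the epidermis of wild-type C57BL/6 mice in 2 groups, 3 libraries from skin that received AKBA gel and 3 from skin that received the blank gel without it, called control gel here. AKBA usually stands for acetyl-11-keto-beta-boswellic acid, a compound of frankincense resin. The epidermis was parted from the dermis with the protease Dispase II. The control libraries also carry the letters IMQ, which the labels leave unexplained, and no source used here gives the age or sex of the mice or any further treatment of the skin. Whether each library came from its own mouse is not said either, so the p-values rest on the spread among these libraries alone, and that spread may be technical.

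Collagens are secreted or membrane proteins whose chains wind into a helix, and the kind of chain decides what the helix builds. Fibroblasts of the dermis make the fibrils that give skin its strength, mainly from types I and III with type V at their core. Below the epidermis, type IV chains form the sheet of the basement membrane, type VII forms the anchoring fibrils that tie it to the dermis, and type XVII is a membrane protein of the hemidesmosome that holds basal keratinocytes to it. Keratinocytes make types XVII and VII, though type VII is not made by them alone, whereas the fibrillar chains mark dermal cells.

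The 6 type IV genes sit in the genome as 3 head-to-head pairs, and the pairs lay in different directions in these data, so the letters at their start sites are shown first. In the GENCODE M21 annotation of GRCm38, Col4a1 (chr8:11198423-11312826, minus strand) and Col4a2 (chr8:11312805-11449287, plus strand) overlap by 22 bases at their starts, on opposite strands. Col4a4 (chr1:82448423-82586849, minus) and Col4a3 (chr1:82586921-82722059, plus) have 71 bases between their starts. Col4a6 (chrX:141165403-141474076, minus) and Col4a5 (chrX:141475385-141689234, plus) have 1308. The letters below come from RefSeq promoter windows of GRCm38.p6, 5′ to 3′. The first stretch is chr8:11312801-11312830 on the plus strand, with the 22 bases of both genes in capitals.
Col4a1 and Col4a2 start sites: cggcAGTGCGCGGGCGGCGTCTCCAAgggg
The whole stretch between the other autosomal pair is chr1:82586850-82586920 on the plus strand.
Between Col4a4 and Col4a3: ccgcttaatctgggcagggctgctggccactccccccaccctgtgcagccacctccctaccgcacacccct
The stretch before Col4a6 is chrX:141474077-141474326 on the minus strand and that before Col4a5 is chrX:141475169-141475384 on the plus strand, with matches to CCAAT or GGGCGG in capitals.
Upstream of Col4a6: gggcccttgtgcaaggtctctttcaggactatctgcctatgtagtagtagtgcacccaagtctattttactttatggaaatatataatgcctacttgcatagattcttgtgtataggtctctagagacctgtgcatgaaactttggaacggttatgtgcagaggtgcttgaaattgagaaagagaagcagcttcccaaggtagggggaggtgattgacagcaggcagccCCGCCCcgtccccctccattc
Upstream of Col4a5: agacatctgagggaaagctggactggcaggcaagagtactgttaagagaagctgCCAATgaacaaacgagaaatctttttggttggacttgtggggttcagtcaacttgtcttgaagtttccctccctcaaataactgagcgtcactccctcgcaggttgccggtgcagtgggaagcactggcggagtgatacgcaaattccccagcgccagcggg
Guanine and cytosine made up 69.0% of the Col4a4 to Col4a3 stretch, 47.6% of the Col4a6 stretch and 52.3% of the Col4a5 stretch.

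Promoter windows of 300 bases (250 before the start and 50 after it) were found for 35 of the 44 genes, 38 windows in all. Both strands were searched for 4 motifs. GGGCGG, the GC box, was in 60.5% of the 38 collagen windows and in 35.7% of all 32851 windows of the table. CCAAT was in 34.2% against 37.4%, TATAAA in 13.2% against 13.6%, and TGANTCA, the AP-1 motif, in 2.63% against 7.81%. The single collagen window with TGANTCA was that of Col6a1, and the windows with TATAAA were those of Col3a1, Col10a1, Col11a2, Col13a1 and Col17a1. These are matches of letters and not binding sites.

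The libraries held 19066045 to 22760432 counts, so 3 counts, the limit of detection used here, correspond to 0.132 to 0.157 CPM. CPM is the usual unit of counts scaled by library size. The limit of 3 counts covers counting error only. Levels are CPM after TMM scaling between libraries, listed for replicates 1, 2 and 3 in that order. Where genes are compared with each other, the deposited FPKM is used, which is also divided by gene length. Keratins of the epidermis were abundant, with suprabasal markers summing to 38270.2 to 69909.5 CPM with AKBA gel and 28672 to 43376 CPM with control gel. Transcripts of other layers were abundant too, with skeletal muscle markers summing to 7391 to 8762 CPM with AKBA gel and 5329 to 10158 CPM with control gel. Of all counts, the 44 collagen genes took 2.26, 2.17 and 3.24% with AKBA gel and 4.10, 3.46 and 2.13% with control gel. Col1a1, Col1a2 and Col3a1 alone made up 73.0% to 82.7% of these collagen counts. The values below thus come from libraries that held RNA of dermis and muscle beside that of the labelled epidermis.

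Summed by class, the fibrillar collagens stood at 19147, 18378 and 24979 CPM with AKBA gel and 34605, 27354 and 18065 CPM with control gel. Control replicate 3 was the lowest of all 6 libraries and control replicate 1 the highest, so the groups overlapped widely. The basement membrane collagens stood at 1993, 1783 and 2234 CPM against 2307, 2518 and 2487 CPM. Here the highest AKBA library lay below the lowest control library after TMM scaling. As a share of the column totals this class took 0.195, 0.176 and 0.238% with AKBA gel. With control gel it took 0.236, 0.260 and 0.228%, so that on this scale the groups overlapped. The other collagens stood at 1987, 1862 and 3187 CPM against 3256, 3659 and 2690.2 CPM, with AKBA replicate 3 among the controls. The suprabasal keratinocyte markers were mostly higher in the mean, with a log2 fold change above 0 in 14 of 16 tested identifiers of 10 genes (median 0.47). The groups overlapped in each of the 16 and in the summed level. Of the 16, 0 passed by edgeR. At an unadjusted p under 0.05, 3 were higher and 0 lower, beside 6.45% and 7.01% of all genes tested. DESeq2, which called 0.603% of its genes higher, called Lor, which codes for loricrin, higher (adjusted p = 0.0320). The 22 fibroblast markers that are not collagens summed to 6569.5 to 7725 CPM with AKBA gel and 7865 to 9708 CPM with control gel. These sums did not overlap after TMM scaling, though AKBA replicate 3 (7725 CPM) and control replicate 3 (7865 CPM) were close. The TMM factors of these 2 libraries were 1.07 and 0.918, so that on column totals the groups overlapped. Of the 22, 18 had a log2 fold change below 0, beside 49.6% of all genes tested. The part of either list in the collagen values was not tested. In such bulk libraries, fewer fibroblasts in the sample, for whatever reason, and less collagen RNA per fibroblast cannot be told apart.

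**Figure D1:**
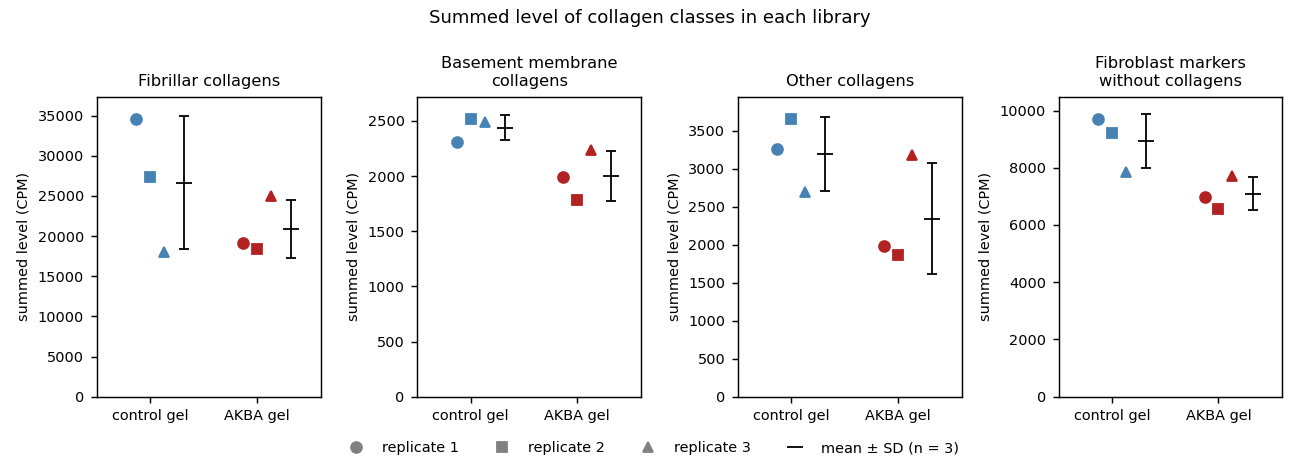
Summed level in CPM of the 3 collagen classes and of 22 fibroblast markers without collagens (y axis, from 0), with 1 point per library and the mean ± SD of 3 libraries beside each group. Fibrillar collagens ranged from 18065 to 34605 CPM within the control group alone. The basement membrane collagens and the fibroblast markers of the groups did not overlap after the TMM scaling shown.

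Collagen genes were more often lower than higher with AKBA gel, by modest amounts. Of the 44 genes, 38 passed the filter on low counts, and 27 of these 38 had a log2 fold change below 0 (71.1%, beside 49.6% of all 17023 genes tested). The median over the 38 was -0.37, beside 0.00 over all genes tested, and single genes ran from -1.43 for Col13a1 to 1.04 for Col9a3. In 9 genes the AKBA libraries all lay below the control libraries (23.7%, beside 9.1% of all genes tested), and in 3 genes they all lay above (7.89%, beside 9.28%). By the edgeR quasi-likelihood test with Benjamini-Hochberg adjustment over all genes no collagen gene passed 0.05, and neither did any other gene (0% of 17023), with the smallest collagen adjusted p at 0.336. At an unadjusted p under 0.05, 9 of the 38 collagen genes were lower (23.7%, beside 7.01% of all genes tested) and 3 higher (7.89%, beside 6.45%). DESeq2, which called 1.33% of its 15752 genes lower and 0.603% higher, called none of the 35 collagen genes it adjusted, with the smallest adjusted p of 0.0787 at Col13a1. The authors' deposited table called 0.572% of its genes and none of the 44 collagen genes, with a smallest adjusted p of 0.0727. That share is over all 47729 genes, of which 19134 had no count. Every gene the authors called had an absolute log2 fold change of at least 1, so their share is not on the scale of the DESeq2 shares.

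The number of collagen genes with a negative log2 fold change differed with the libraries that entered. It was 31 of 38 without AKBA replicate 3 (50.7% of all genes) and 23 of 39 without control replicate 1 (48.2% of all genes). At an unadjusted p under 0.05, 17 collagen genes were lower without AKBA replicate 3, where 7.55% of all genes were. Only 2 were lower without AKBA replicate 1 (4.14% of all genes), 3 without AKBA replicate 2 (3.76%), 4 without control replicate 2 (5.12%) and 4 without control replicate 3 (4%). DESeq2 put 14 of 44 lower at that p (4.52% of all its genes), as did edgeR without the low-count filter (4.97%). Of the higher genes at that p, 0 were left without AKBA replicate 2 (3.42% of all genes), 1 without AKBA replicate 3 (8.38%) and 1 without control replicate 3 (3.48%). The median log2 fold change ran from -0.57 without AKBA replicate 3 to -0.21 without AKBA replicate 2. With libraries scaled by their column totals in place of TMM, 5 collagen genes lay below without overlap (13.2%, beside 6.61% of all genes), namely Col13a1, Col4a2, Col5a3, Col6a5 and Col8a1, and 3 lay above (11.2% of all genes), namely Col17a1, Col4a5 and Col4a6.

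**Figure D2:**
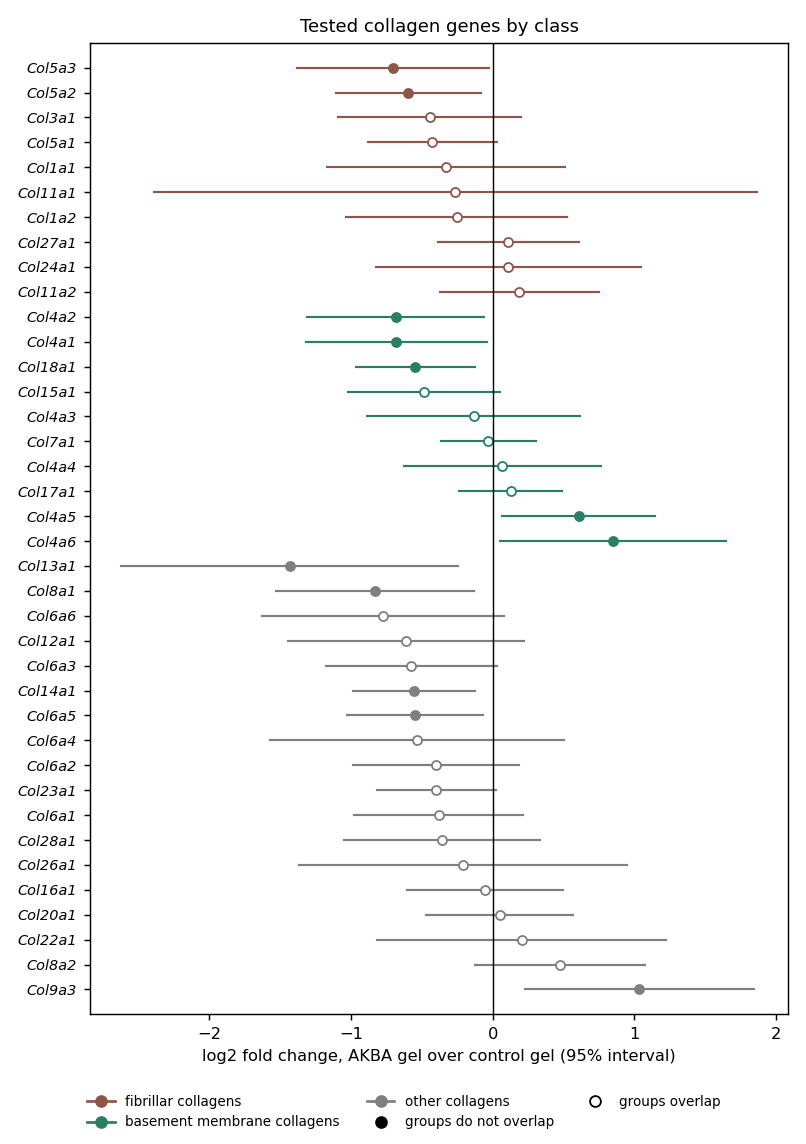
Log2 fold change between the gels (x axis, AKBA over control, 0 means no difference) for the 38 tested collagen genes, grouped by class, with 95% intervals from edgeR. Filled points are the genes whose groups did not overlap: 9 lie below 0 and 3 (Col4a5, Col4a6 and Col9a3) above it.

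Among the fibrillar collagens the abundant chains of type I ranged widely within the control group. Per length Col1a1 was the highest collagen gene, at a mean of 1148 FPKM over the 6 libraries, followed by Col3a1 at 878, Col1a2 at 537 and Col6a1 at 165 FPKM. Col1a1, which codes for the major chain of type I collagen, was at 5924, 5741 and 8190.5 CPM with AKBA gel and 11359.8, 8766 and 4775 CPM with control gel. Col1a2, its partner chain, was at 5425, 5497 and 7197 CPM with AKBA gel and 9534, 7728 and 4312 CPM with control gel. Both were lowest in control replicate 3 and highest in control replicate 1, and the groups overlapped. The edgeR fit gave log2 fold changes of -0.33 ± 0.36 (± SE here and below) for Col1a1 and -0.25 ± 0.33 for Col1a2, with 95% intervals of -1.17 to 0.51 and -1.03 to 0.53. With 1 library left out they ranged from -0.60 to -0.02 for Col1a1 and from -0.52 to 0.01 for Col1a2, both ends set by control replicates 3 and 1. Col3a1, the single chain of type III collagen, which is plentiful in young and healing skin, was at 6939, 6437 and 8429 CPM with AKBA gel and 12316, 9492 and 7868 CPM with control gel. Control replicate 3 lay below AKBA replicate 3 here as well, and the log2 fold change was -0.44 ± 0.28 with an edgeR adjusted p of 0.516.

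The chains of type V, which sit inside type I fibrils and limit their width, were lower in the mean with AKBA gel. Col5a2 was at 391, 302 and 527 CPM with AKBA gel and 661, 652 and 529 CPM with control gel, so that AKBA replicate 3 nearly met control replicate 3. Col5a3 was at 62.5, 30.6 and 70.2 CPM with AKBA gel and 75.5, 86.9 and 104 CPM with control gel, without overlap. Col5a1 was at 384, 332 and 493 CPM with AKBA gel and 619, 551 and 453 CPM with control gel, and AKBA replicate 3 lay above control replicate 3. Their log2 fold changes were -0.59 ± 0.22 for Col5a2, -0.70 ± 0.29 for Col5a3 and -0.43 ± 0.19 for Col5a1, and the edgeR adjusted p-values were 0.342, 0.363 and 0.395. With column totals Col5a2 overlapped between the groups.

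Col11a1, a fibrillar chain best known from cartilage, was the most variable of the tested collagens. It was at 4.42, 19.1 and 47.2 CPM with AKBA gel and 16.5, 61.1 and 7.33 CPM with control gel, and the groups overlapped completely. Acan, which codes for the proteoglycan aggrecan, was in the same order of libraries, at 1.72, 9.35 and 21.0 CPM with AKBA gel and 6.48, 23.9 and 2.35 CPM with control gel. The 7 cartilage markers found, Acan among them, summed to 64.4, 58.5 and 93.5 CPM with AKBA gel and 59.6, 82.1 and 31.8 CPM with control gel. This sum put the libraries in another order than Col11a1 and Acan did. Matn1 and Matn3 were at no more than 0.0958 and 0.0479 CPM in any library. The part of the cartilage markers in the Col11a1 values was not tested. The log2 fold change of Col11a1 was -0.26 ± 0.91 and went from -1.25 to 0.97 with 1 library left out. The other tested fibrillar genes, Col11a2, Col24a1 and Col27a1, stayed at means between 2.09 and 15.1 CPM, with overlapping groups and log2 fold changes of 0.11 to 0.19.

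The type IV pairs lay in different directions, with no gene past the edgeR threshold. Col4a1 and Col4a2 code for the chains found in nearly all basement membranes, vessels included. Col4a1 was at 357, 237 and 520.2 CPM with AKBA gel and 535, 664 and 585 CPM with control gel. Col4a2, which shares its start with it (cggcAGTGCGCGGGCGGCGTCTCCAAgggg), was at 282, 168 and 370.3 CPM with AKBA gel and 395, 480.4 and 443 CPM with control gel. In both genes AKBA replicate 2 was lowest, AKBA replicate 3 came close to the lowest control, and no AKBA library reached a control library. Their log2 fold changes were almost equal, -0.68 ± 0.27 and -0.68 ± 0.27, with edgeR adjusted p-values of 0.355 and 0.351. With 1 library left out they stayed negative, from -0.99 to -0.44 and from -0.95 to -0.43, a sign that groups without overlap make nearly certain. With column totals Col4a1 overlapped between the groups and Col4a2 did not.

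Col4a5 and Col4a6 code for chains of the network found in the basement membrane under the epidermis, and they stood higher with AKBA gel. Col4a5 was at 20.8, 24.8 and 21.2 CPM with AKBA gel and 19.3, 14.5 and 9.92 CPM with control gel. Col4a6 was at 11.4, 17.3 and 12.2 CPM with AKBA gel and 9.95, 8.78 and 3.88 CPM with control gel. Every AKBA library lay above every control library in both genes, and control replicate 3 was the lowest. The log2 fold changes were 0.61 ± 0.23 and 0.85 ± 0.34, with edgeR adjusted p-values of 0.345 and 0.354. Both stayed positive with 1 library left out, from 0.39 to 0.87 and from 0.54 to 1.11, a sign that groups without overlap make nearly certain. Their groups stayed apart under each of the 3 scalings.

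The pair Col4a3 and Col4a4, chains of the network known from the kidney filter, was low and showed no such pattern. Col4a3 was at 8.73, 5.05 and 10.4 CPM with AKBA gel and 12.2, 7.90 and 6.56 CPM with control gel, and Col4a4 was at 18.4, 12.2 and 20.5 CPM with AKBA gel and 23.6, 13.6 and 11.7 CPM with control gel. Within each group both genes put the libraries in the same order, with control replicate 1 the highest of all 6. The log2 fold changes were -0.13 ± 0.32 and 0.07 ± 0.30, with 95% intervals of -0.89 to 0.62 and -0.63 to 0.77. Per length, the summed FPKM of Col4a1 and Col4a2 was 19.99, 9.78 and 26.9 times that of Col4a5 and Col4a6 with AKBA gel. With control gel it was 31.9, 49.6 and 74.2 times. This ratio was formed after the values of the genes had been seen and is given as a description, with no test. Endothelial cells also make Col4a1 and Col4a2. All 10 endothelial markers had a log2 fold change below 0, beside 49.6% of all genes tested. They summed to 254 to 438 CPM with AKBA gel and 410.3 to 536 CPM with control gel. The part of endothelial cells in the type IV values was not tested.

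**Figure D3:**
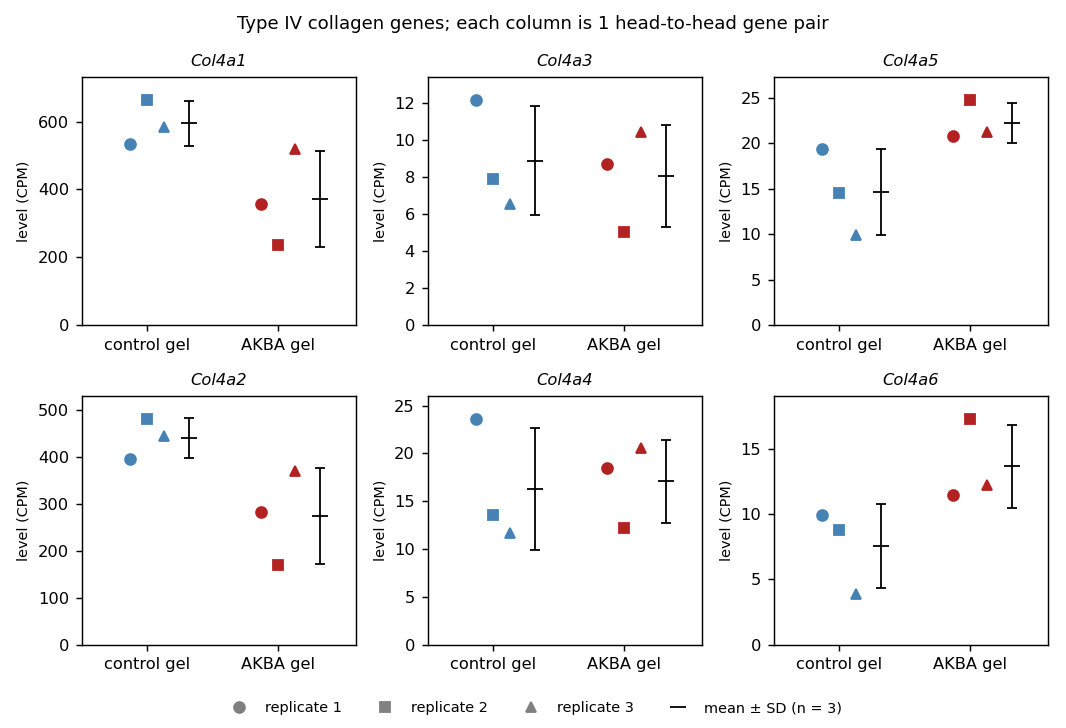
Level in CPM (y axis, from 0, with its own scale for each gene) of the 6 type IV collagen genes, with 1 point per library and the mean ± SD of 3 libraries. Col4a1 and Col4a2 lie lower with AKBA gel, Col4a5 and Col4a6 lie higher, and Col4a3 and Col4a4 overlap.

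The collagens of epidermal attachment varied least between libraries. Col17a1, the hemidesmosome collagen, was at 803, 912 and 698 CPM with AKBA gel and 729, 701 and 779 CPM with control gel. Col7a1, the anchoring fibril collagen, was at 213, 189.9 and 233 CPM with AKBA gel and 222, 184 and 242 CPM with control gel. The groups overlapped in both genes, and the spread of their FPKM over the 6 libraries was 8.96% and 10.9% of the mean, the lowest of the 44 genes, beside 36.0% for Col1a1 and 33.6% for Col4a1. The log2 fold changes were 0.13 ± 0.16 and -0.03 ± 0.14, with 95% intervals of -0.24 to 0.49 and -0.37 to 0.31. The sign of Col7a1 turned without AKBA replicate 2 or control replicate 3. With column totals, every AKBA library lay above every control library for Col17a1, which was not so with TMM. That separation was nearly a tie, with deposited FPKM of 129.18 in AKBA replicate 3 and 129.12 in control replicate 1. Of the 11 basal keratinocyte markers, 9 had a log2 fold change below 0 (median -0.24), beside 49.6% of all genes tested. The 11 summed to 11175 to 15789 CPM with AKBA gel and 14722 to 33365 CPM with control gel, and their part in the Col17a1 and Col7a1 values was not tested. Among them the keratin Krt14 was at 8405, 4333 and 7587 CPM with AKBA gel and 8461, 14360.2 and 24385 CPM with control gel, and the keratin Krt15 at 727, 913 and 570.2 CPM with AKBA gel and 502, 219 and 196 CPM with control gel. Neither keratin passed by edgeR (adjusted p = 0.343 and 0.331). DESeq2, which called 1.33% of its genes lower and 0.603% higher, called Krt14 lower (adjusted p = 0.0407) and Krt15 higher (0.0228).

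Col18a1 and Col15a1 code for the multiplexins, which link basement membranes to the matrix around vessels and other tissue. Col18a1, whose end piece is endostatin, was at 163, 136 and 189 CPM with AKBA gel and 189, 269 and 254 CPM with control gel. Here AKBA replicate 3 and control replicate 1 were nearly equal, and with column totals the groups overlapped. Col15a1 was at 115, 80.5 and 159.6 CPM with AKBA gel and 172, 174 and 151 CPM with control gel, with AKBA replicate 3 above control replicate 3. The log2 fold changes were -0.55 ± 0.18 and -0.48 ± 0.23, with edgeR adjusted p-values of 0.336 and 0.414.

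Type VI collagen forms beaded filaments around fibroblasts and muscle fibres, and its abundant chains are Col6a1, Col6a2 and Col6a3. Col6a1 was at 519.7, 504 and 849 CPM with AKBA gel and 877, 933 and 627 CPM with control gel. Col6a2 was at 455, 454 and 754 CPM with AKBA gel and 764, 850.4 and 580.3 CPM with control gel. Col6a3 was at 561, 477 and 897 CPM with AKBA gel and 977, 1094 and 807 CPM with control gel. In each of them AKBA replicate 3 lay among the controls, well above the other 2 AKBA libraries. The log2 fold changes were -0.38 ± 0.26, -0.40 ± 0.25 and -0.57 ± 0.26, with edgeR adjusted p-values of 0.545, 0.519 and 0.391. Of the minor chains, Col6a5 was at 4.66, 4.09 and 6.31 CPM with AKBA gel and 7.19, 7.12 and 7.76 CPM with control gel, without overlap (log2 fold change -0.55 ± 0.20, edgeR adjusted p = 0.343). Col6a6 overlapped (-0.77 ± 0.37), as did Col6a4, which reached no more than 1.14 CPM in any library.

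Col14a1, Col12a1 and Col16a1 code for collagens that lie along the surface of fibrils. Col14a1 was at 126, 104 and 161 CPM with AKBA gel and 193, 165 and 218 CPM with control gel, without overlap, though AKBA replicate 3 and control replicate 2 were close and overlapped with column totals. Col12a1 was at 120.1, 101 and 236 CPM with AKBA gel and 158, 303 and 239 CPM with control gel. Col16a1 was at 136, 169 and 202 CPM with AKBA gel and 193, 212 and 120.2 CPM with control gel. Col12a1 and Col16a1 overlapped between the groups. The log2 fold changes were -0.56 ± 0.18, -0.61 ± 0.36 and -0.05 ± 0.24, and that of Col16a1 took either sign with 1 library left out (-0.26 to 0.10).

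Among the membrane collagens, Col13a1, found at cell adhesion sites and at the synapse of nerve and muscle, had the lowest log2 fold change of the 38 tested genes. It was at 2.70, 0.904 and 4.30 CPM with AKBA gel and 4.86, 6.64 and 10.1 CPM with control gel, from 17 to 101 counts in the AKBA libraries and 102 to 210 counts in the control libraries. AKBA replicate 2 was far below the rest and control replicate 3 far above. The log2 fold change was -1.43 ± 0.51 (edgeR adjusted p = 0.339, DESeq2 0.0787), and it ran from -1.97 to -1.03 with 1 library left out. Col23a1, another membrane collagen, was at 23.4, 22.3 and 30.0 CPM with AKBA gel and 27.2, 40.3 and 32.1 CPM with control gel, with overlap.

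Col8a1, a short chain of the network under endothelium and in remodelling tissue, was at 10.5, 5.10 and 10.1 CPM with AKBA gel and 11.1, 17.9 and 16.8 CPM with control gel, without overlap (log2 fold change -0.83 ± 0.30, edgeR adjusted p = 0.339). Its partner chain Col8a2 went the other way in the mean, at 6.72, 4.20 and 4.86 CPM with AKBA gel and 4.67, 3.06 and 3.64 CPM with control gel, with overlap (0.47 ± 0.26). Col9a3, a fibril-surface chain known from cartilage, was at 1.37, 2.13 and 2.26 CPM with AKBA gel and 0.667, 1.31 and 0.814 CPM with control gel. The lowest AKBA library lay just above the highest control library, and with column totals the groups overlapped. The log2 fold change was 1.04 ± 0.35 (edgeR adjusted p = 0.339). An exon of Col9a3 overlaps an exon of Tcfl5 on the opposite strand, and no source says that reads were counted by strand. Reads in the shared stretch, whose size was not measured, may therefore come from either gene.

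The other tested genes, Col20a1, Col22a1, Col26a1 and Col28a1, stayed at group means of at most 5.12 CPM with overlapping groups. Below the filter were Col2a1, Col9a1, Col9a2, Col10a1, Col19a1 and Col25a1, with 0 to 20 counts in any library. Col2a1 and Col10a1, the defining collagens of cartilage and of its growth plate, had 0 to 11 and 0 to 3 counts. Col9a1 had 3 counts in each AKBA library and 0 to 2 in the control libraries, which is at the limit of detection. No fold is given for these 6 genes. In all, 13 of the 44 genes have an exon that overlaps another annotated gene, among them Col3a1, Col5a1, Col7a1, Col15a1 and the Col4a1 and Col4a2 pair.

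**Figure D4:**
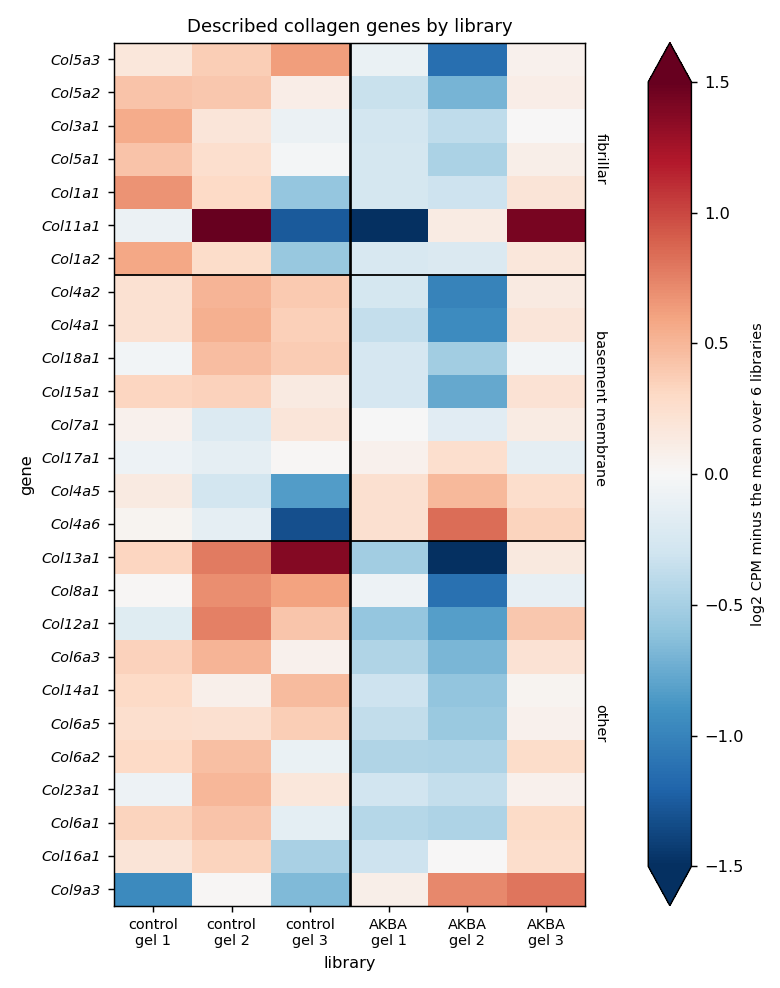
Log2 CPM of the 26 described collagen genes minus the gene's mean over the 6 libraries (colour, with values past 1.5 in either direction shown at the end of the scale), with libraries in columns and genes in rows by class. Control replicate 3 is lowest for Col1a1 and Col1a2, AKBA replicate 2 is lowest for Col4a1, Col4a2 and Col13a1, and Col17a1 and Col7a1 stay near their mean in all 6 libraries.

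The ratio of chains that wind into the same helix was compared within each library. Col1a2 stood to Col1a1, per length, at 0.484, 0.506 and 0.464 with AKBA gel and 0.443, 0.466 and 0.477 with control gel. Col4a2 stood to Col4a1 at 0.887, 0.800 and 0.801 with AKBA gel and 0.831, 0.814 and 0.853 with control gel. Col6a2 stood to Col6a1 at 0.460, 0.474 and 0.467 with AKBA gel and 0.459, 0.479 and 0.487 with control gel. The first ratio thus ran from 0.443 to 0.506 over libraries in which Col1a1 itself ran from 667 to 1767 FPKM. The ratio of Col3a1 to Col1a1, chains of different trimers, was 0.783, 0.750 and 0.688 with AKBA gel and 0.725, 0.724 and 1.102 with control gel, and control replicate 3 stood apart from the other 5 libraries.

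The ratio of Col6a3 to Col6a1 was 0.395, 0.347 and 0.387 with AKBA gel and 0.408, 0.429 and 0.471 with control gel, and the groups did not overlap. By an exact 2-sided permutation test this difference had p = 0.1, the smallest that 3 libraries against 3 can give, and an adjusted p of 0.7 over the 7 ratios compared. Col5a2 stood to Col5a1 at 0.900, 0.807 and 0.947 with AKBA gel and 0.945, 1.05 and 1.03 with control gel (exact p = 0.2), with AKBA replicate 3 just above control replicate 1. Col7a1 stood to Col17a1 at 0.149, 0.117 and 0.187 with AKBA gel and 0.171, 0.147 and 0.174 with control gel (exact p = 0.7). The exact p-values of the other ratios were 0.3 for Col1a2 to Col1a1, 0.5 for Col6a2 to Col6a1, 0.7 for Col3a1 to Col1a1 and 1 for Col4a2 to Col4a1.

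**Figure D5:**
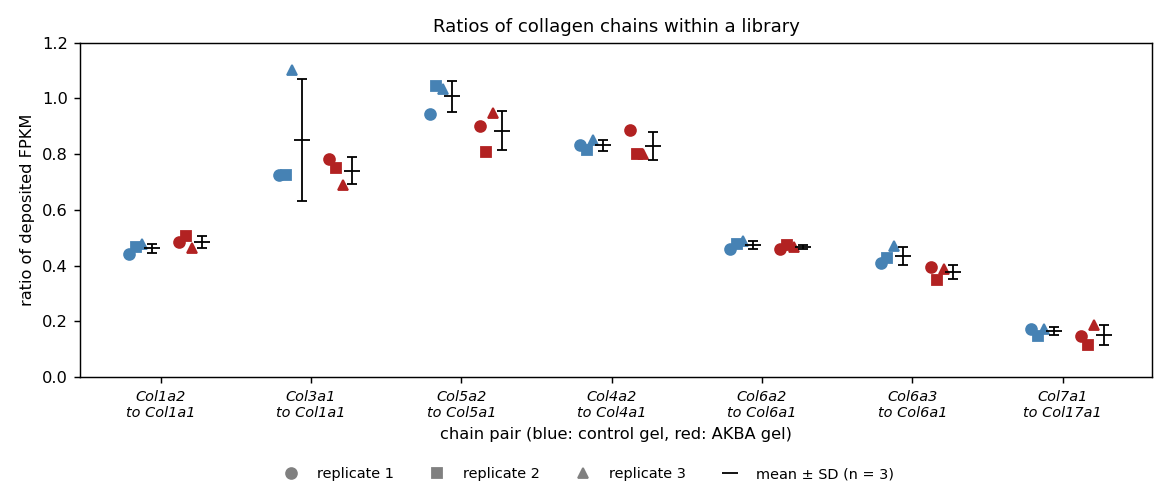
Ratio of deposited FPKM (y axis, from 0) for 7 pairs of collagen chains in each library, control gel in blue and AKBA gel in red, with the mean ± SD of 3 libraries. Col1a2 to Col1a1 lies between 0.443 and 0.506 in all 6 libraries, and Col3a1 to Col1a1 reaches 1.102 in control replicate 3.

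Most genes that fold, modify, cut and cross-link collagen had a lower level with AKBA gel, short of the edgeR threshold. Of 31 tested members of this list, 27 had a log2 fold change below 0, beside 49.6% of all genes tested. The median over the 31 was -0.27, beside 0.00 over all genes. In 12 of the 31 the AKBA libraries all lay below the controls (9.1% of all genes tested), and in 0 above (9.28%). None passed by edgeR over all genes (13 lower and 1 higher at an unadjusted p under 0.05, beside 7.01% and 6.45% of all genes tested). DESeq2, which called 1.33% of its genes lower and 0.603% higher, called 2 lower. Both were lysyl oxidases, the enzymes that start cross-links between chains. Loxl1 was at 97.6, 68.1 and 95.8 CPM with AKBA gel and 128, 151 and 147 CPM with control gel (log2 fold change -0.70 ± 0.16, DESeq2 adjusted p = 0.0136). Loxl2 was at 67.2, 55.2 and 83.5 CPM with AKBA gel and 98.9, 103 and 109 CPM with control gel (-0.59 ± 0.16, DESeq2 adjusted p = 0.0483). The most abundant members were P4hb, a subunit of the prolyl hydroxylase that stabilises the helix, at 574, 523 and 568 CPM with AKBA gel and 599, 735 and 877 CPM with control gel, and Serpinh1, the collagen chaperone HSP47, at 367, 370.0 and 505 CPM with AKBA gel and 625, 508 and 379 CPM with control gel. P4hb did not overlap between the groups and Serpinh1 did.

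Of 9 tested collagen receptors, 7 had a log2 fold change below 0, beside 49.6% of all genes tested. Without overlap, 2 of the 9 lay below and 1 above, beside 9.1% and 9.28% of all genes tested. DESeq2 called 1 of the 9, beside 1.33% of its genes lower and 0.603% higher. Itgb1, the beta subunit of the collagen-binding integrins, was at 241, 205 and 261 CPM with AKBA gel and 284, 393 and 392 CPM with control gel (log2 fold change -0.60 ± 0.17, DESeq2 adjusted p = 0.0499, edgeR 0.331). Ddr1, a receptor kinase of epithelial cells that binds collagen, was at 168, 176 and 166 CPM with AKBA gel and 139, 125 and 127 CPM with control gel, above the controls in every library (0.38 ± 0.10, DESeq2 adjusted p = 0.0687). Mrc2, which takes up collagen for breakdown, was at 90.2, 78.8 and 107 CPM with AKBA gel and 115, 120.4 and 111 CPM with control gel, without overlap (-0.32 ± 0.13). Of 9 proteoglycans that bind fibrils, 3 had a log2 fold change below 0 and 6 above, and all overlapped between the groups. The most abundant were decorin, Dcn, at 1274, 1144 and 1217 CPM with AKBA gel and 1378, 1224 and 1214 CPM with control gel (-0.07 ± 0.15), and biglycan, Bgn, at 573, 461 and 816 CPM with AKBA gel and 903, 856 and 776 CPM with control gel (-0.45 ± 0.22).

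Of 20 partners of collagen in the basement membrane, 18 had a log2 fold change below 0, beside 49.6% of all genes tested. The median was -0.43, and 4 lay below without overlap (9.1% of all genes tested). These were the laminin chains Lamc1 (222 ± 43.8 against 324 ± 32.3 CPM, SD, n = 3 each, log2 fold change -0.55 ± 0.17) and Lama4 (-0.34 ± 0.19), nidogen 1, Nid1 (229 ± 41.4 against 309.9 ± 27.3 CPM, -0.44 ± 0.16), and perlecan, Hspg2 (389 ± 95.5 against 524 ± 22.0 CPM, -0.43 ± 0.19). The most abundant, Dst and Plec, which tie hemidesmosomes to keratin, had log2 fold changes of 0.32 ± 0.17 and -0.11 ± 0.15 with overlapping groups. All 12 tested members of the list of TGF-beta ligands, receptors and fibrogenic targets were lower in the mean (median -0.41), and 6 lay below without overlap (9.1% of all genes tested). Fibronectin, Fn1, was at 545, 405 and 489.8 CPM with AKBA gel and 722, 640.1 and 715 CPM with control gel (log2 fold change -0.53 ± 0.16, DESeq2 adjusted p = 0.0407, edgeR 0.334). Periostin, Postn, was at 698, 415 and 852 CPM with AKBA gel and 896, 889 and 1049.7 CPM with control gel (-0.53 ± 0.26). None of the lists of receptors, proteoglycans, basement membrane partners and TGF-beta genes had a member past 0.05 by edgeR over all genes. At an unadjusted p under 0.05 they had 2, 0, 8 and 6 lower members and 1, 0, 0 and 0 higher ones, out of 9, 9, 20 and 12 tested, beside 7.01% and 6.45% of all genes tested. In the same order, DESeq2 called 1, 0, 0 and 1 members, beside 1.33% of its genes lower and 0.603% higher.

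Other cells that make collagen were represented as well. Of 14 skeletal muscle markers 3 were lower in the mean (median 0.12, summed 7391 to 8762 CPM with AKBA gel and 5329 to 10158 CPM with control gel). Of 10 adipocyte markers 7 were lower (median -0.12, summed 1257 to 1534 CPM with AKBA gel and 1091 to 1675 CPM with control gel), and of 8 Schwann cell markers 5 (median -0.12, summed 234 to 302 CPM with AKBA gel and 249 to 371 CPM with control gel). The groups overlapped in the summed level of each of these 3 lists, and their part in the collagen values was not tested. Of the 22 fibroblast markers, 0 passed by edgeR. At an unadjusted p under 0.05, 5 were lower and 0 higher, beside 7.01% and 6.45% of all genes tested. Without overlap, 4 lay below and 0 above, beside 9.1% and 9.28%. DESeq2, which called 1.33% of its genes lower, called the elastic fibre genes Eln (260.0, 118 and 213 CPM with AKBA gel and 484, 340.1 and 388 CPM with control gel, adjusted p = 0.0196) and Fbn1 (261, 147 and 325 CPM with AKBA gel and 459, 488 and 492 CPM with control gel, adjusted p = 0.0191) lower. The most abundant, Sparc, a protein that binds collagen, was at 2522, 2754 and 2817 CPM with AKBA gel and 3842, 3311 and 2285 CPM with control gel, with overlap.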

How the data were processed

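Per the submitters' processing notes, the reads went through CASAVA 1.8, RSEM and edgeR on GRCm38. The tools' roles and annotation were not given in the sources used here, and the authors deposited 1 table with whole-number counts per gene and library, FPKM values, and their own log2 fold change, p-value and adjusted p-value per gene. Whether the counts were rounded is not stated. The deposited FPKM values were used to compare genes within a library. Per the labels, groups and replicate numbers come from the sample titles. All 6 libraries were fitted with edgeR 4.0.16 (R 4.3.3): default low-count filter (17023 genes), TMM factors of 0.918 to 1.07, the quasi-likelihood test, and Benjamini-Hochberg adjustment over all genes at 0.05. The standard error is the log2 fold change divided by the square root of F. The pipeline was tested on simulated data. No 2 libraries agreed within counting noise (lowest chi-square per degree of freedom 30.8). Alternatives were DESeq2 1.42.0, its size factors, 2 other filters, the replicate number as a block, and each library left out. Described collagen genes were a list of 17, those whose groups did not overlap and those at a mean of 20 CPM or more. Of each companion list, members past 0.05 by either tool, up to 5 members without overlap and the 2 most abundant were named, and a few further markers were named after their values had been seen. The members and lists were chosen with earlier results of these data known, and scaling by column totals was added after the values had been seen. Positions are those of GENCODE M21, in which all 44 genes were found.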

Additional observations from a re-analysis of the deposited data

How the results depend on the processing

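No collagen gene passed 0.05 under any of 11 other settings of the test (smallest adjusted p = 0.0787, by DESeq2 for Col13a1). Of the 26 described genes, 22 kept their sign in every setting that tested them. Col13a1 and Col9a3 were not tested under the stricter filter of 5 CPM. The 26 include the 9 lower and 3 higher genes whose groups did not overlap. Leaving out 1 library can hardly turn the sign of such a gene, so their kept signs are no separate support. With 1 library left out, 4 genes took either sign. Col16a1 ranged from -0.26 to 0.10 (0.08 without AKBA replicate 1, 0.03 without control replicate 1, 0.10 without control replicate 2) and Col11a1 from -1.25 to 0.97 (0.23 without AKBA replicate 1, 0.97 without control replicate 2). Col7a1 ranged from -0.14 to 0.0599 (0.04 without AKBA replicate 2, 0.0599 without control replicate 3) and Col1a2 from -0.52 to 0.0148 (without control replicate 1). Over all genes DESeq2 called 304. With a library left out edgeR called 0 to 14, the 14 without control replicate 1, none of them a collagen gene. Likewise, the log2 ratio of Col3a1 to Col1a1, AKBA gel minus control gel, ranged from -0.27 to 0.0292 (without control replicate 3), that of Col7a1 to Col17a1 from -0.31 to 0.0262 (without AKBA replicate 2), and that of Col4a2 to Col4a1 from -0.0564 to 0.0186 (0.0186 without AKBA replicate 2, 0.0177 without AKBA replicate 3, 0.0107 without control replicate 3). The cause of these shifts was not tested. The collagen share of counts differed by -0.671 percentage points (AKBA gel minus control gel), from -1.22 without control replicate 3 to -0.235 without control replicate 1. With the replicate number as a block, 28 of 38 collagen genes had a log2 fold change below 0 and 0 passed. Same-numbered libraries correlated at 0.07, 0.02 and -0.33 in their deviations from the group means. The highest values were 0.43 for AKBA replicate 3 with control replicate 2 and 0.38 for AKBA replicate 1 with control replicate 3. The deviations within a group of 3 sum to 0, which ties these correlations together. They therefore cannot decide whether the numbers pair the libraries. The number of libraries limits the values of the most abundant fibrillar chains, Col1a1, Col1a2 and Col3a1, whose 95% intervals include 0. Depth limits the 6 genes below the filter.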
